A study of Mus musculus with 9 samples.

Results

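The matrix metalloproteinases Mmp2, Mmp8, Mmp9, Mmp13 and Mmp14 were followed in castrated against sham-operated C57BL/6 mice, on 2-colour expression arrays of bone and bone marrow. The enzymes were taken as every array feature whose platform annotation names 1 of the 5 genes alone, with symbols updated by gene ID. This gave 10 of the 11552 features. The mesenchymal enzymes Mmp2, Mmp13 and Mmp14 had 7 features, and Mmp8 and Mmp9, enzymes of neutrophils and osteoclasts, had 3. An Mmp14 feature (9731) and an Mmp9 feature (7197) carried no value on any array, which left 8 features with values. Of these, 7 entered the tests, and Mmp2 feature 5005 did not because only 1 young marrow array gave it a value.

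There were 3 groups of 3 arrays, and each array of a group held a different pair of mice, castrated against sham-operated, all operated at 7 weeks. The old marrow group was 59 weeks old and labelled bone marrow, and the young bone and young marrow groups were 17 weeks old. RNA came from femur, tibia and humerus. The separation of marrow from bone is described only for the young mice, and the RNA protocol speaks of pulverised bone, so how much bone the old specimens held is not known. The labels do not say if the same mice gave both young tissues. The castrated mouse was labelled with Cy5 on 6 arrays and with Cy3 on 3 arrays, called swapped arrays here. These were replicate 2 of old marrow, replicate 3 of young bone and replicate 2 of young marrow.

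Each value is a deposited log ratio, read here as log2. Neither its log base nor its direction is stated. The labels describe every array as castrated against sham, so the ratio was likely castrated over sham on all 9 arrays, and a value below 0 is then lower in castrated mice. In the other reading, called the channel reading, each ratio is Cy5 over Cy3 and swapped arrays change sign, and its averages and group values are given for the tested enzymes. A ratio holds no level, so the enzymes cannot be ranked by abundance, and the tissue labels could not be checked against absolute marker levels. The arrays held 8290 to 10995 values each. Old marrow replicate 1 stood apart by its spread, with an SD over features of 0.455 against 0.192 to 0.294 elsewhere.

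Matrix metalloproteinases are zinc proteases that are made as inactive proenzymes and cut collagens and other matrix proteins, and the tissue inhibitors of metalloproteinases (Timps) block them. Mmp13, the main interstitial collagenase of mice, is made by osteoblasts and hypertrophic chondrocytes. Mmp14 is a membrane-bound collagenase that, together with Timp2, activates the gelatinase Mmp2. Mmp8 is a collagenase stored in neutrophil granules, and Mmp9 is a gelatinase of neutrophil granules and of osteoclasts.

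The stretches of 250 bases upstream of the start sites of Mmp13, Mmp8 and Mmp14 are shown, as none was available for Mmp2 and Mmp9. These genes are a mesenchymal collagenase, a neutrophil collagenase of the same cluster and the membrane-bound enzyme. The stretches were taken from RefSeq on build GRCm38.p6, plus strand, and 3 of the 5 genes were matched. The motifs searched on both strands were TGANTCA (AP-1), TGTGGT (RUNX), GAGGAA (PU.1) and TTGCNNAA (C/EBP). They were chosen after the sequences were seen. Capitals mark the matches, and a match is a description of letters only.
Mmp13 chr9:7272264-7272513: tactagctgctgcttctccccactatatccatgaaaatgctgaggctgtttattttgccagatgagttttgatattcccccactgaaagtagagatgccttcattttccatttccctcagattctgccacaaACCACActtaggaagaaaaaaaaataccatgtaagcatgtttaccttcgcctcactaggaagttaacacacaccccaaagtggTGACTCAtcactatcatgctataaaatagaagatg
Mmp8 chr9:7558179-7558428: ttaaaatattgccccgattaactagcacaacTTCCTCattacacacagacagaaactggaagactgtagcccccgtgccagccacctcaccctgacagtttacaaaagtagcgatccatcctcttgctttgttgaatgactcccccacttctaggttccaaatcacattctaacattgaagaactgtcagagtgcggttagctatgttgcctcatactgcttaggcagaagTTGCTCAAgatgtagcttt
Mmp14 chr14:54431348-54431597: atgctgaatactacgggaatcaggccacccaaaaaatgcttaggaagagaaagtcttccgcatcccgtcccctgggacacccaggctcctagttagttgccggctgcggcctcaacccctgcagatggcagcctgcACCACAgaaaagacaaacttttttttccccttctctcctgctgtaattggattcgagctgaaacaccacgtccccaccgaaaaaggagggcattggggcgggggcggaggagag
In Mmp13 the capitals are a RUNX match on the minus strand at -118 to -113 and an AP-1 match at -35 to -29, counted from the start site. In Mmp8 they are a PU.1 match on the minus strand at -219 to -214 and a C/EBP match at -19 to -12, and in Mmp14 a RUNX match on the minus strand at -114 to -109. Among 32851 upstream stretches of this length, 6.75% held the AP-1 motif, 14.0% the RUNX motif, 23.3% the PU.1 motif and 9.56% the C/EBP motif. Mmp13 and Mmp8 lie on chromosome 9 of that assembly in a run of metalloproteinase genes, with 5 genes between them. Dcun1d5 and Mmp12 are the protein-coding neighbours of Mmp13, and Mmp10 and Mmp27 are those of Mmp8.

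Mmp9 and Mmp8 fell in castrated mice on the average of the 3 groups, and none of the 5 tested features of Mmp2, Mmp13 and Mmp14 passed the test there or in any group. Mmp9 had a fitted log2 ratio of -0.43 (SE 0.060, adjusted p = 0.00298) and Mmp8 of -0.41 (SE 0.093, adjusted p = 0.0373), by limma over 8885 features with Benjamini-Hochberg adjustment. So 2 of the 7 tested features passed, both downward, while 4.04% of all features passed in either direction, 2.03% downward and 2.01% upward. Under the channel reading the averages were -0.092 for Mmp9 (adjusted p = 0.893) and 0.03 for Mmp8 (adjusted p = 0.958), and 0 of the 8885 features passed in that average (418 at an unadjusted p under 0.05). In these bulk specimens fewer cells of a type and less RNA per cell cannot be told apart.

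**Figure D1:**
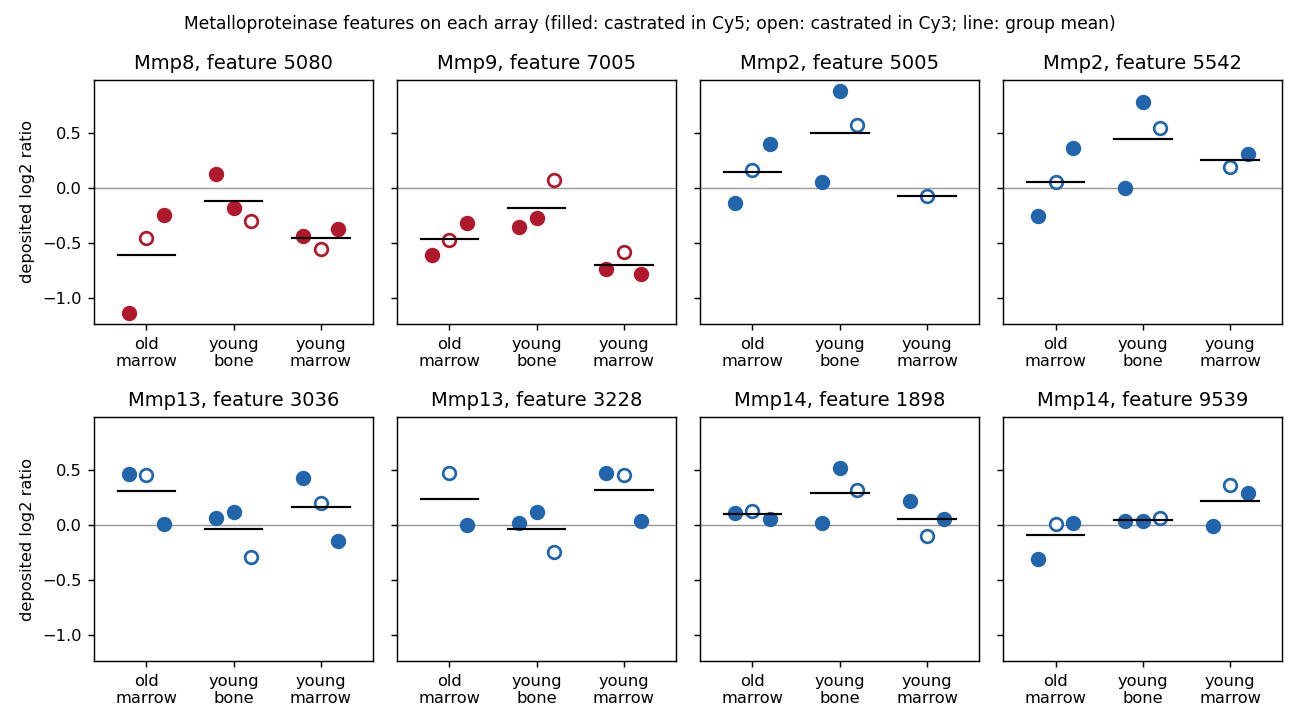
Deposited log2 ratio (vertical axis, likely castrated over sham) of the 8 metalloproteinase features with values, in old marrow, young bone and young marrow. Each point is 1 array, filled where the castrated mouse was in Cy5 and open where it was in Cy3, and the line is the group mean; Mmp8 and Mmp9 (red) lie below 0 on 8 of 9 arrays each, and Mmp2 (blue) is highest on young bone replicate 2.

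Mmp9 (feature 7005), the gelatinase of neutrophils and osteoclasts, had log2 ratios of -0.61, -0.48 and -0.32 on old marrow replicates 1 to 3. In young bone they were -0.36, -0.28 and 0.07, and in young marrow -0.74, -0.59 and -0.79. Thus 8 of 9 arrays lay below 0, the exception being the swapped array of young bone. No young bone array was as low as any young marrow array, which does not hold once swapped arrays are turned. The share of all features that separate these groups was not counted. On the young marrow arrays only 0.139%, 0.903% and 0.271% of the tested features with a value were lower than Mmp9. By dye layout the mean was -0.33 ± 0.35 on the 3 swapped arrays and -0.52 ± 0.22 on the 6 unswapped arrays (SD).

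The fitted Mmp9 ratio was -0.44 in old marrow (SE 0.099, adjusted p = 0.0864), -0.16 in young bone (SE 0.099, adjusted p = 0.779) and -0.68 in young marrow (SE 0.099, adjusted p = 0.0113, limma). Of the 7 tested enzyme features, Mmp9 in young marrow was the only call within a group. In young marrow 0.844% of all features passed in either direction and 0.113%, or 10 features, passed downward (91 downward with arrays scaled to the median SD); the shares were 0.732% in either direction and 0.124% downward in old marrow, and 0.259% in either direction in young bone. Under the channel reading the values were -0.0083 in old marrow, -0.095 in young bone and -0.17 in young marrow. The young marrow call was lost without young marrow replicate 1 (adjusted p = 0.111), 2 (adjusted p = 0.283) or 3 (adjusted p = 0.112), and on unswapped arrays alone (adjusted p = 0.117), although the ratio stayed between -0.69 and -0.66 when any array was left out. Without old marrow replicate 3, the old marrow ratio of -0.55 passed (adjusted p = 0.0111), as did 1332 features in all.

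Whether the Mmp9 ratio differed between groups was tested directly. It was higher by 0.52 in young bone than in young marrow (SE 0.138, unadjusted p = 0.00338), which did not pass over all features (adjusted p = 0.873, limma). Old marrow minus young marrow was 0.24 (SE 0.138, adjusted p = 0.418), and old marrow minus young bone was -0.28 (SE 0.138, adjusted p = 0.693). In the order young marrow, old marrow, young bone, from lowest to highest, neighbours did not differ beyond the threshold. Under the channel reading old marrow was highest in place of young bone, and the differences were 0.077 for young bone minus young marrow, 0.16 for old marrow minus young marrow and 0.087 for old marrow minus young bone. Over all features, 0.0113% passed in old marrow minus young bone, which was a feature of Xist, named after its value was seen, and 0 passed in either other difference (1292 at an unadjusted p under 0.05 in old marrow minus young marrow and 455 in young bone minus young marrow).

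Mmp8 (feature 5080), the neutrophil collagenase, had log2 ratios of -1.14, -0.46 and -0.25 on old marrow replicates 1 to 3. In young bone they were 0.12, -0.19 and -0.30, and in young marrow -0.44, -0.56 and -0.38. Again 8 of 9 arrays were below 0, with young bone replicate 1 as the exception. All 3 young marrow arrays were lower than all 3 young bone arrays, whereas old marrow overlapped both groups. As for Mmp9, this separation is lost once swapped arrays are turned, and its share over all features was not counted. The value of -1.14 stood on the array with the widest spread, where 0.0568% of the tested features with a value were lower.

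The fitted Mmp8 ratio was -0.63 in old marrow (SE 0.155, adjusted p = 0.121), -0.13 in young bone (SE 0.155, adjusted p = 0.973) and -0.47 in young marrow (SE 0.155, adjusted p = 0.276, limma). Channel values were -0.17, 0.21 and 0.05 in the same groups. The average call depended on single arrays. It was lost without old marrow replicate 2 (adjusted p = 0.0892), without young bone replicate 2 (adjusted p = 0.0787) or 3 (adjusted p = 0.191), and without young marrow replicate 1 (adjusted p = 0.0978), 2 (adjusted p = 0.24) or 3 (adjusted p = 0.0756), with ratios between -0.48 and -0.34 over all arrays left out. On unswapped arrays alone it was also lost (adjusted p = 0.172). In a single group, Mmp8 passed in old marrow without old marrow replicate 3 (-0.80, adjusted p = 0.0108), where 1332 features passed, and in young marrow without old marrow replicate 1 (-0.49, adjusted p = 0.0331), where 112 features passed. It also passed in young marrow with arrays scaled to the median SD (-0.52, adjusted p = 0.0198), where 222 features passed. The Mmp8 differences between groups were -0.16 for old marrow minus young marrow, -0.49 for old marrow minus young bone and 0.34 for young bone minus young marrow (SE 0.215 each), and none passed (adjusted p = 0.727, 0.693 and 0.957). Their channel values were -0.22, -0.39 and 0.16.

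**Figure D2:**
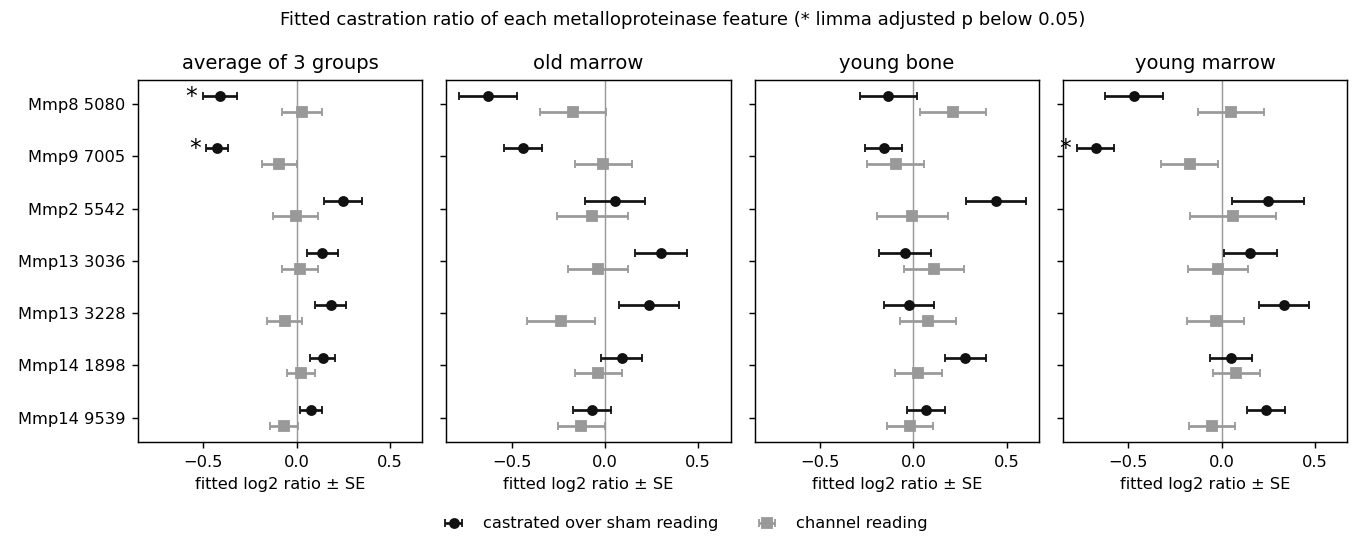
Fitted log2 ratio with its SE (horizontal axis) of the 7 tested metalloproteinase features, for the average of the 3 groups, old marrow, young bone and young marrow. Black circles are the castrated-over-sham reading and grey squares the channel reading; asterisks mark the calls of Mmp9 and Mmp8 in the average and of Mmp9 in young marrow, and no channel value is marked.

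Mmp2, a gelatinase of stromal cells, had its highest fitted ratio in young bone in the castrated-over-sham reading and in young marrow in the channel reading. Feature 5542 had log2 ratios of -0.26, 0.05 and 0.36 on old marrow replicates 1 to 3 and of 0.00, 0.78 and 0.54 on young bone replicates 1 to 3. Young marrow replicates 2 and 3 gave 0.19 and 0.31, with no value on replicate 1. The groups overlapped, and young bone itself spread from no difference to the highest value of this feature. Feature 5005, which has the same accession, had -0.14, 0.16 and 0.40 in old marrow, 0.05, 0.88 and 0.57 in young bone and -0.08 on the only young marrow array with a value. The Mmp2 features differed by a median of 0.10 over the 7 arrays they shared and by 0.27 at most.

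The fitted ratio of Mmp2 feature 5542 was 0.25 in the average (SE 0.101, adjusted p = 0.252), 0.054 in old marrow (SE 0.161, adjusted p = 0.867), 0.44 in young bone (SE 0.161, adjusted p = 0.409) and 0.25 in young marrow (SE 0.193, adjusted p = 0.679), where the fit ran without replicate 1. Channel values were near 0 in the average (-0.0045) and in young bone (-0.0052). They were -0.069 in old marrow and 0.060 in young marrow. None of its differences between groups passed, the largest being -0.39 for old marrow minus young bone (SE 0.223, adjusted p = 0.693, channel value -0.063).

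Mmp13, the interstitial collagenase, was highest on some marrow arrays. Feature 3036 had log2 ratios of 0.46, 0.45 and 0.01 in old marrow, 0.06, 0.12 and -0.29 in young bone and 0.43, 0.20 and -0.15 in young marrow. Feature 3228, which has the same accession, had 0.47 and 0.00 on old marrow replicates 2 and 3 and no value on replicate 1. Its ratios were 0.02, 0.12 and -0.25 in young bone and 0.47, 0.45 and 0.04 in young marrow. The Mmp13 features differed by a median of 0.04 over 8 shared arrays and by 0.25 at most. Both showed replicate 3 as the lowest array of every group, and what arrays of the same number share is not stated.

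Fitted averages of Mmp13 were 0.14 for feature 3036 (SE 0.084, adjusted p = 0.492) and 0.18 for feature 3228 (SE 0.083, adjusted p = 0.323), with channel values of 0.018 and -0.064. In old marrow they were 0.30 and 0.24 (adjusted p = 0.281 and 0.424), in young bone -0.043 and -0.023 (adjusted p = 1 for both) and in young marrow 0.15 and 0.33 (adjusted p = 0.712 and 0.407). The difference of old marrow minus young bone was 0.34 and 0.26, and that of young bone minus young marrow was -0.20 and -0.36, none of which passed. The channel reading gave -0.039 and -0.235 in old marrow, 0.11 and 0.077 in young bone and -0.019 and -0.033 in young marrow. It turned the sign of these differences too, to -0.15 and -0.31 for old marrow minus young bone and to 0.13 and 0.11 for young bone minus young marrow.

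Mmp14, the membrane-bound collagenase, had 2 features with values and different accessions, and these did not move together. Feature 1898 had log2 ratios of 0.11, 0.13 and 0.05 in old marrow, 0.02, 0.52 and 0.32 in young bone and 0.22, -0.10 and 0.05 in young marrow. Feature 9539 had -0.31, 0.01 and 0.02 in old marrow, 0.04, 0.04 and 0.06 in young bone and -0.01, 0.36 and 0.29 in young marrow. The highest value of feature 1898 was in young bone and that of feature 9539 in young marrow. They differed by a median of 0.24 over 9 arrays and by 0.48 at most. Features that share an accession, which the Mmp14 features do not, differed by a median of 0.07 over 6088 pairs of values. Of those pairs, 95% differed by 0.33 or less. Which Mmp14 feature follows the gene could not be told.

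The Mmp14 averages were 0.14 for feature 1898 (SE 0.067, adjusted p = 0.346) and 0.078 for feature 9539 (SE 0.061, adjusted p = 0.638), and the channel values were 0.023 and -0.066. Feature 1898 had a fitted ratio of 0.28 in young bone (SE 0.111, adjusted p = 0.468), and feature 9539 one of 0.24 in young marrow (SE 0.101, adjusted p = 0.438). In old marrow the fitted ratios were 0.089 and -0.071 (adjusted p = 0.668 and 0.71). The channel reading changed the order of the groups, with 0.077 in young marrow and 0.027 in young bone for feature 1898, -0.0525 in young marrow and -0.019 in young bone for feature 9539, and -0.036 and -0.13 in old marrow.

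The mesenchymal enzymes were then set against Mmp8 and Mmp9 on each array, averaging the features of a gene and then the genes. The mean of Mmp2, Mmp13 and Mmp14 was above 0 on 9 of 9 arrays, at 0.053, 0.21 and 0.14 in old marrow, 0.032, 0.41 and 0.16 in young bone and 0.28, 0.17 and 0.14 in young marrow. The mean of Mmp8 and Mmp9 was below 0 on 9 of 9 arrays, with values of -0.88, -0.47 and -0.29 in old marrow, -0.12, -0.24 and -0.12 in young bone and -0.59, -0.58 and -0.59 in young marrow. No single enzyme feature with all 9 values lay on 1 side of 0 on every array. Young marrow replicate 1 entered the mesenchymal mean without Mmp2. On old marrow replicate 1 the mean of 0.053 rested mainly on Mmp13 feature 3036 (0.46). There the Mmp2 features (-0.14 and -0.26) and Mmp14 feature 9539 (-0.31) were below 0, and Mmp14 feature 1898 was at 0.11. The sign of the mean therefore does not hold for each enzyme.

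The mesenchymal mean minus the mean of Mmp8 and Mmp9 was 0.93, 0.68 and 0.43 in old marrow, 0.15, 0.65 and 0.27 in young bone and 0.87, 0.75 and 0.73 in young marrow. The difference averaged 0.60 ± 0.27 (SD, 9 arrays), and its smallest value was that of young bone replicate 1. It was 0.57 ± 0.26 on the 3 swapped arrays and 0.62 ± 0.29 on the 6 unswapped arrays (SD). Under the channel reading the swapped arrays turn round and the mean difference was 0.23. That is a plain mean over 6 unswapped and 3 swapped arrays with no dye term, unlike the fitted channel values of single enzymes. As the dye layouts had like values, it mostly reflects their unequal numbers of arrays. These are descriptions of a score over chosen genes and carry no test.

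**Figure D3:**
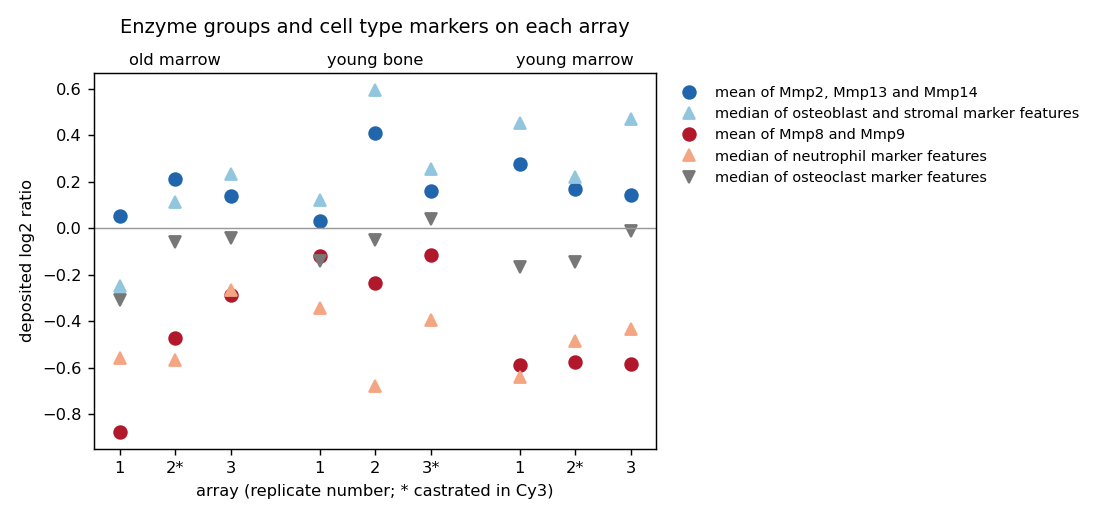
Deposited log2 ratio (vertical axis) on each of the 9 arrays (horizontal axis) of the mean of Mmp2, Mmp13 and Mmp14, the mean of Mmp8 and Mmp9, and the medians of neutrophil, osteoclast, and osteoblast and stromal marker features. Neutrophil markers lie between -0.68 and -0.27, on the side of Mmp8 and Mmp9 on every array, and stromal markers lie below 0 on old marrow replicate 1 alone.

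Neutrophil markers were below 0 with Mmp8 and Mmp9. In the average, where 2.03% of all features fell, the median of the list was -0.50 against -0.004 over all tested features. All 12 tested features of the list, from 8 of the 27 listed genes, fell there. Among them were the granule protease Ctsg (feature 4837, -0.55, adjusted p = 0.0127), the lysozyme Lyz2 (-0.62, adjusted p = 0.00315), the decoy receptor Il1r2 (-0.62 and -0.59, adjusted p = 0.00491 and 0.00974), the annexin Anxa1 (-0.55, adjusted p = 0.000789) and Padi4, which citrullinates histones (-0.37, adjusted p = 0.00842). Padi4 was the neutrophil marker that passed in young marrow (-0.55, adjusted p = 0.0369, limma), where 0.113% of all features passed downward. Anxa1 was the one in old marrow (-0.63, adjusted p = 0.0264, limma), where that share was 0.124%. In young bone 0 of the list passed, and 9 had an unadjusted p under 0.05 by limma (8.78% of all features did). The list holds genes whose fall in these data was already known, so its count is not independent evidence, and monocytes also make Lyz2, Cybb and Itgam.

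The list's median over its features lay between -0.68 and -0.27 on the 9 arrays. It was -0.35, -0.68 and -0.40 in young bone, where the mean of Mmp8 and Mmp9 was -0.12, -0.24 and -0.12. The fitted ratios of the list in young bone ran from -0.81 to -0.145 with a median of -0.46, while Mmp8 was at -0.13 and Mmp9 at -0.16, near Padi4 at -0.145. In old marrow the list's median was -0.46 and in young marrow -0.50. The part of neutrophils in the fall of Mmp8 and Mmp9 was not tested. The count of 12 was 9 without old marrow replicate 1, 3 without old marrow replicate 2, 6 without young bone replicate 3, 7 without young marrow replicate 1 and 2 without young marrow replicate 2. It was 4 on unswapped arrays alone and 0 under the channel reading.

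Osteoclast markers gave no call: 0 of 6 tested features passed in the average by limma (median -0.065, 3 at an unadjusted p under 0.05), from 6 of 17 listed genes. Over all features 16.2% had an unadjusted p under 0.05 in the average. The proton pump subunit Atp6v1b2 had -0.22 (adjusted p = 0.0553), the sorting nexin Snx10 -0.20 (adjusted p = 0.308) and the kinase Src 0.18 (adjusted p = 0.201). Of the osteoblast and stromal markers 0 of 14 passed (median 0.18, 6 at an unadjusted p under 0.05), with 13 above 0. Their medians were -0.018 in old marrow, 0.25 in young bone and 0.35 in young marrow. Col1a1, a chain of type I collagen, had 0.46 (adjusted p = 0.134), and the chemokine Cxcl12 had 0.26 and 0.23 in its features (adjusted p = 0.0702 and 0.148).

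In the average 2.01% of all features rose and 2.03% fell, and the marker lists were chosen with earlier results of these data known. Among other cell types, 7 of 8 B lymphocyte features rose in the average (median 0.93). They included the surrogate light chain gene Vpreb3 (1.09), the receptor gene Il7r (0.91), Cd79b of the B cell receptor (0.95), the kinase Blk (0.77) and the regulators Pou2af1 (0.96) and Bach2 (1.13 on the log2 scale). Of the monocyte and macrophage features, 3 of 9 fell and 1 rose. Those that fell were Mpeg1 (-0.40, adjusted p = 0.00924) and the 2 features of Ccr2 (-0.43 and -0.42, adjusted p = 0.0119 and 0.0118), and the class II molecule H2-Eb1 rose (0.37, adjusted p = 0.0202). Skeletal muscle features gave 0 calls of 8 in the average (0 at an unadjusted p under 0.05), with Acta1 at -0.14, Myl1 at -0.28 and Eno3 at -0.16. Their fitted median was 0.25 in old marrow, -0.60 in young bone and -0.067 in young marrow. None passed in a group, but 3 of 8 had an unadjusted p under 0.05 in old marrow (18.2% of all features did) and 7 of 8 in young bone (8.78% did). Erythroid features gave 0 calls of 2 (0 at an unadjusted p under 0.05), with Fech at -0.069 and Kel at 0.0025. The part of these cell types in the ratios of the enzymes was not tested.

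The inhibitors gave 0 calls of 5 tested features in the average by limma (median 0.067, 1 at an unadjusted p under 0.05). Timp3, an inhibitor bound to the matrix, had log2 ratios of 0.48, 0.28 and 0.34 in old marrow, 0.01, 0.09 and -0.12 in young bone and 0.70, 0.15 and 0.98 in young marrow. All marrow arrays were above all young bone arrays, which does not hold once swapped arrays are turned. How many of all features did the same was not counted. Young bone minus young marrow was -0.62 (SE 0.155, adjusted p = 0.873, channel value -0.44). Its average of 0.27 (SE 0.067, adjusted p = 0.0531, channel value 0.17) and its young marrow ratio of 0.56 (SE 0.112, adjusted p = 0.0537) lay just short of the threshold.

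Timp2, which takes part in the activation of Mmp2 by Mmp14, ran the other way. Feature 38 had -0.26, -0.19 and 0.08 in old marrow, 0.45, 0.85 and 0.28 in young bone and -0.03, -0.17 and 0.29 in young marrow. Feature 10693 had 0.27, 1.17 and 0.39 in young bone, against values between -0.29 and 0.14 on the marrow arrays. The fitted young bone ratios were 0.48 (adjusted p = 0.159) and 0.58 (adjusted p = 0.266), and a feature described after its values were seen, 8459, had 0.50 (adjusted p = 0.221). Young bone replicate 2 was the highest array for each of these features, as it was for Mmp2 and for Mmp14 feature 1898.

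**Figure D4:**
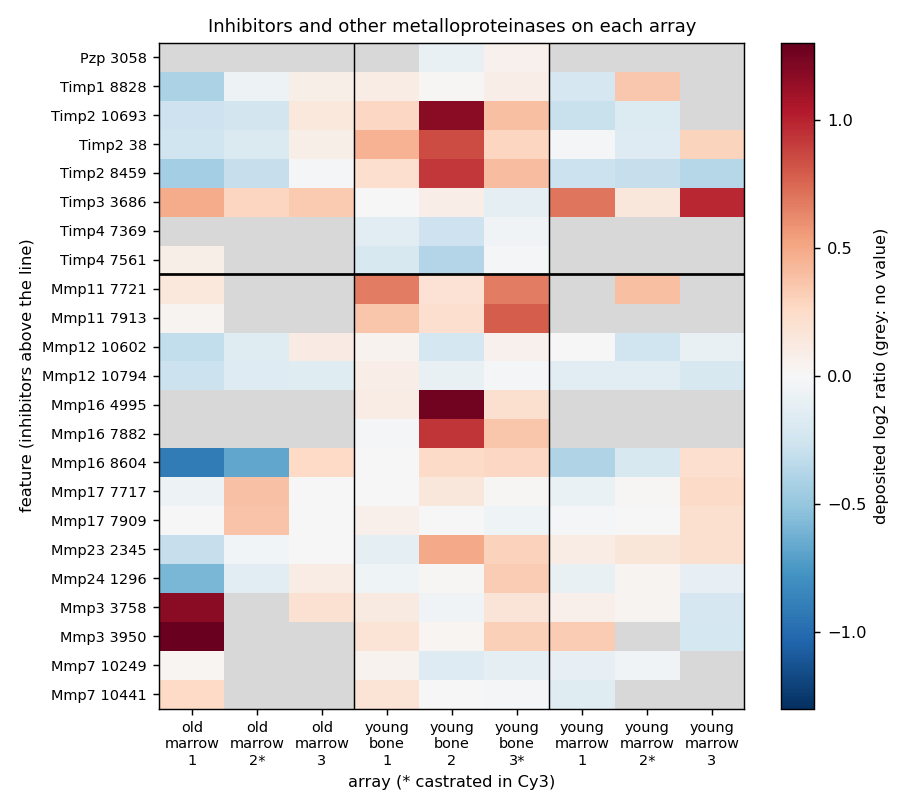
Deposited log2 ratio (colour, red above 0 and blue below 0) of the inhibitor features (above the line) and of the other metalloproteinase features (below it) on each array; grey marks no value. Timp2 is red in young bone, Timp3 in both marrow groups, and the Mmp16 features 4995 and 7882 have values in young bone alone while Mmp16 feature 8604 has them on all arrays.

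Of the other metalloproteinases 0 of 8 tested features passed (median 0.026, 2 at an unadjusted p under 0.05), from 6 of 18 listed genes. The macrophage elastase Mmp12 had -0.13 and -0.10 (adjusted p = 0.257 and 0.536). Stromelysin Mmp3 (feature 3758) had 1.17 and 0.20 on old marrow replicates 1 and 3, no value on replicate 2 and between -0.22 and 0.17 in the young groups, with a fitted old marrow ratio of 0.75 (SE 0.228, adjusted p = 0.198). Some features had values mainly in young bone. The Mmp16 features 4995 and 7882 had 0.10, 1.25 and 0.21 and -0.02, 0.93 and 0.36 there and none in the marrow groups. A further Mmp16 feature, 8604, had values on all 9 arrays, with -0.91, -0.68 and 0.26 in old marrow, 0.00, 0.25 and 0.27 in young bone and -0.39, -0.21 and 0.22 in young marrow. It was tested and did not pass (old marrow ratio -0.46, SE 0.197, adjusted p = 0.261). Mmp11 (feature 7721) had 0.67, 0.19 and 0.67 there, against 0.14 in old marrow and 0.39 in young marrow on 1 array each. Apart from feature 8604 these features were not tested, and why values are missing is not stated.

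Activators and partners gave 0 calls of 4 (1 at an unadjusted p under 0.05). The urokinase receptor Plaur had -0.34 (SE 0.091, adjusted p = 0.0731) and was below 0 on 8 of 9 arrays, and the inducer basigin, Bsg, had -0.033 and -0.023 in its features (adjusted p = 0.914 and 0.946). Of the related ADAM and ADAMTS proteases 0 of 4 passed (median 0.023, 0 at an unadjusted p under 0.05), and the features of the sheddase Adam17 had 0.050, 0.028 and 0.016. Of the cytokines that induce metalloproteinases 0 of 5 passed (median -0.17, 3 at an unadjusted p under 0.05), with Tnf at -0.24 (adjusted p = 0.117) and Il1b at -0.18 and -0.17 (adjusted p = 0.107 and 0.13).

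Among matrix substrates 1 of 16 features fell in the average, Kitl (feature 10146, -0.36, adjusted p = 0.039), a membrane-bound growth factor. Over all features 2.03% fell, so a single call among 16 is near that background. Another Kitl feature had 0.13 and did not pass, and it was described after its values were seen. In young marrow the features of fibronectin, Fn1, fell (-0.69 and -0.67, adjusted p = 0.0188 and 0.0183), with values from -0.91 to -0.54. There 0.113% of all features passed downward, and 0 features did so without young marrow replicate 1, 2 or 3. In young bone the Fn1 features had 0.33 and 0.29 (adjusted p = 0.36 and 0.415). Of the transcription factors that bind metalloproteinase promoters 2 of 17 features rose, where 2.01% of all features rose, and the other 15 did not pass. Both were features of Ets1 (0.33 and 0.32, adjusted p = 0.0204 and 0.0347), so they make 1 gene of the 10 tested. The channel values were 0.15 for Kitl and -0.019 and -0.031 for Ets1 in the average, and -0.31 and -0.26 for Fn1 in young marrow.

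The genes whose ratios ran most like each enzyme over the arrays were named by Pearson correlation, as a description. The arrays share 1 platform and the contrast of dye and tissue, and the 5 highest were picked from all features with values on all 9 arrays. For Mmp9 the likest was Actb, cytoplasmic actin (feature 2930, r = 0.945), followed by Add3, Atg7, Plec and Bace1. For Mmp8 they were Gdf10 (r = 0.974), Tgfbi, Fbxo21, Mgrn1 and Atp7a. Without old marrow replicate 1, where Mmp8 was lowest, their r was 0.936, 0.928, 0.907, 0.822 and 0.829. For Mmp2 feature 5542, over 8 arrays, they were Sh3pxd2b (r = 0.965), the collagen VI chain Col6a3 (r = 0.961), Nav1, Ccnd1 and the metalloproteinase Mmp23 (r = 0.943).

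The Mmp13 features shared Sf1 (r = 0.884 for feature 3036 and 0.906 for feature 3228). The others were A630076J17Rik, Tprkb, Tcea1 and Smtnl2 for feature 3036 and Il1r1, 9630025H16Rik, Cdc27 and Kif14 for feature 3228. The Mmp14 features shared none. Feature 1898 ran most like Actb (r = 0.904), Afdn, Repin1, Mef2a and Rrbp1. That Actb feature, 8667, is not the one named for Mmp9, and feature 1898 and Mmp9 had r = 0.463 with each other. Feature 9539 ran most like Il5 (r = 0.959), Alg10b, Rpa3, Mrps35 and Gna11.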

How the data were processed

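The authors deposited 1 table of log ratios for the 9 arrays, read here as log2 ratios. How they were background-corrected, normalized, logged and oriented is not given in the sources used here. Intensities were not used, so the number of arrays limits the precision. Gene names came from the platform annotation, updated by gene ID: 8050 features had 1 symbol, 672 several and 2830 none. Tests took the 8885 features measured on 2 or more arrays in each group and on 1 or more swapped arrays. A limma 3.58.1 fit (R 4.3.3, lmFit and eBayes) modelled group plus 1 dye effect, with 5 residual and 5.67 prior degrees of freedom. Benjamini-Hochberg adjustment ran over all tested features, with a threshold of 0.05, and the fit was tested on simulated data. The main reading was castrated over sham. Correlations of same-numbered deviations ran from -0.37 to 0.60 over 9 pairs, and no block was used. Mice of different age cannot be the same, so only young bone with young marrow bears on pairing. Those correlations were -0.093, -0.37 and -0.077 for replicates 1 to 3. This check cannot tell if mice were shared under other numbers.

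The members and the 14 gene lists were chosen with earlier results of these data known. The text names every member feature. From each list it names features among those that pass in a castration comparison (at most 6) or, where none passes, the 3 with the smallest p in the average, and beside each tested member the 5 genes with the highest Pearson correlation. Features outside the rule were described after their values were seen: Timp2 feature 8459, the other Kitl feature, Mmp16, Mmp11, Xist and those whose groups lay on opposite sides of 0. Cybb and Itgam are named without values. Alternatives were the channel reading, no dye term, unswapped arrays, centring, scaling, missing-value filters, a replicate block, robust moderation and leaving out each array. Each group had 3 arrays, fewer where a feature lacked values, and p-values measure the spread between arrays, taken as independent mouse pairs. The labels do not say if young bone and young marrow share mice. If they do, the average counts those mice in both young groups. Young bone minus young marrow would then ignore their pairing.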

Additional observations from a re-analysis of the deposited data

Results flagged for a closer look

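In 16 comparisons of listed features every array of a group lay on the opposite side of 0 from every array of another group. The share of all features separated in this way was not counted, so the 16 cannot be set against a background. None of the differences that could be tested passed over all features (limma). Timp2 feature 8459 had -0.44, -0.30 and -0.02 in old marrow, 0.22, 0.92 and 0.40 in young bone and -0.28, -0.30 and -0.37 in young marrow. Young bone minus young marrow was 0.83 (SE 0.186, unadjusted p = 0.00103, adjusted p = 0.764, limma), and old marrow minus young bone was -0.77 (SE 0.186, adjusted p = 0.64, limma). The channel reading gave 0.36 and -0.30 for these differences. Serpinb2 (feature 2336), an inhibitor of plasminogen activators, had -0.35, -0.12 and -0.14 in old marrow, against 0.38, 0.16 and 0.81 in young marrow, a difference of -0.65 (SE 0.204, adjusted p = 0.343, limma; channel value -0.47). Old marrow minus young marrow was also -0.32 for Ets2 (adjusted p = 0.354, channel value -0.27) and -0.49 for Pdgfrb (adjusted p = 0.343, channel value -0.07). Junb gave 0.34 for young bone minus young marrow (adjusted p = 0.957, channel value 0.20) and -0.57 for old marrow minus young bone (adjusted p = 0.693, channel value -0.27). Lepr gave 0.69 for old marrow minus young bone, which was not tested.

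The skeletal muscle markers made up 8 of the 16. The light chain Myl1 (feature 11348) had 0.93, 0.20 and 0.23 in old marrow, against -1.43, -0.31 and -1.42 in young bone, and old marrow minus young bone was 1.51 (SE 0.304, adjusted p = 0.518, limma; channel value 0.43). The same difference was 1.35 for both Mylpf and Ckm (adjusted p = 0.518 each) and 1.66 for Mb (adjusted p = 0.693). It was 1.54 for Tnnc2 and 1.65 for Tnnt3, which were not tested. Mylpf gave -0.80 for young bone minus young marrow (adjusted p = 0.873, channel value -0.32), and Ckm gave 1.05 for old marrow minus young marrow (adjusted p = 0.343, channel value 0.69).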

How the results depend on the processing

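The number of features past the threshold in the average was 359, against 0 under the channel reading and 86 on unswapped arrays. In old marrow it was 65, against 0 under the channel reading, 13 on unswapped arrays and 18 with arrays scaled to the median SD. In young bone it was 23, against 0 under the channel reading, 1 on unswapped arrays, 50 without the dye term and 52 with the replicate block. In young marrow it was 75, against 0 under the channel reading, 3 on unswapped arrays, 222 after scaling and 119 with the replicate block. Old marrow minus young marrow gave 0, and 2 among features with a value on all 9 arrays. Old marrow minus young bone gave 1, and 0 under the channel reading, without the dye term, on unswapped arrays, with the looser missing-value filter and with the replicate block. The dye term held 0 features, and 231 under the channel reading, where dye and castration change places. The mean difference of the enzyme groups was 0.60, and 0.23 (0.2271) under the channel reading, as a plain mean with no dye term over unequal numbers of swapped and unswapped arrays. Leaving out each array gave 96 to 574 features in the average, 10 to 1332 in old marrow (the highest without old marrow replicate 3), 1 to 80 in young bone and 0 to 138 in young marrow. It gave 0 to 31 for old marrow minus young bone, 0 to 885 for old marrow minus young marrow, 0 for young bone minus young marrow and for the dye term, and 0.56 to 0.66 for the mean difference of the enzyme groups. The replicate block left the direction and side of the threshold of all 49 enzyme results as they were. The labels do not say if same-numbered arrays share more than a number.

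Mmp9 kept its call in the average under 17 of 18 alternatives (adjusted p from 0.000742 to 0.893, the highest under the channel reading), and Mmp8 under 10 of 18 (0.0041 to 0.958). The channel reading turned the sign of 27 of 49 enzyme results. For Mmp8 it gave 0.03 in the average, 0.21 in young bone and 0.05 in young marrow, and for Mmp9 0.087 in old marrow minus young bone. For Mmp2 feature 5542 it gave -0.0045 in the average, -0.069 in old marrow, -0.0052 in young bone and -0.065 in young bone minus young marrow. For Mmp13 feature 3036 it gave -0.039 in old marrow, 0.11 in young bone, -0.019 in young marrow, -0.02 in old marrow minus young marrow, -0.15 in old marrow minus young bone and 0.13 in young bone minus young marrow. For Mmp13 feature 3228 it gave -0.064 in the average, -0.235 in old marrow, 0.077 in young bone, -0.033 in young marrow, -0.31 in old marrow minus young bone and 0.11 in young bone minus young marrow. For Mmp14 feature 1898 it gave -0.036 in old marrow, -0.11 in old marrow minus young marrow and -0.05 in young bone minus young marrow. For Mmp14 feature 9539 it gave -0.066 in the average, -0.019 in young bone, -0.0525 in young marrow and 0.033 in young bone minus young marrow. On unswapped arrays the Mmp13 features turned to 0.09 and 0.07 in young bone, feature 3228 to -0.07 in old marrow minus young bone, and Mmp14 feature 1898 to -0.055 in old marrow minus young marrow. Scaling turned Mmp8 to 0.050 in old marrow minus young marrow. The channel reading changes signs by its construction; elsewhere the cause was not tested.

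With each array left out, the results whose sign turned at least once ranged from -0.115 to 0.16 (feature 3036) and to 0.23 (feature 3228) for Mmp13 in young bone, and from -0.031 to 0.50 for feature 3228 in old marrow. Old marrow minus young marrow ranged from -0.029 to 0.31 for Mmp13 feature 3036, -0.34 to 0.19 for feature 3228, -0.055 to 0.12 for Mmp14 feature 1898 and -0.35 to 0.14 for Mmp8. Mmp14 ranged from -0.025 to 0.16 in young marrow for feature 1898 and from -0.15 to 0.015 in old marrow for feature 9539, and Mmp2 from -0.105 to 0.205 in old marrow. No turned result was past the threshold except the Mmp8 average under the channel reading, which lost its call. Signal over background is not known here.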
